A study of Mus musculus with 24 samples.

Results

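BMS961, an agonist selective for the retinoic acid receptor RARγ, was compared between P19 cells that lack the receptor gene Rara and P19 wild-type (WT) cells. P19 is a mouse embryonal carcinoma line that can be driven to neurons and glia by retinoids. The series holds 24 RNA sequencing samples with 1 library per condition, and 23 deposited tables set 1 library each against WT cells kept 2 days in the vehicle ethanol. The comparison used the table of Rara-/- cells with BMS961 and the table of WT cells with BMS961, and its members were all 433 genes listed in either of them, out of 1753 genes listed in any table.

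Both cell lines received 0.1 μM BMS961 for 4 days and then serum-free neuronal medium (Neurobasal with N2 and B27) for 6 days, and were collected at day 10. The Rara-/- line was made by CRISPR/Cas9 cleavage with insertion of a puromycin resistance cassette, and whether it is 1 clone is not given in the sources used here. The library of WT cells kept in ethanol to day 10 served as the control of time and medium. Further day 10 libraries give values beside the members: WT cells with 1 μM ATRA (all-trans retinoic acid), with 1 μM BMS753 (a RARα agonist) or with BMS641 (a RARβ agonist) plus BMS961 at 0.1 μM each, Rara-/- cells with ATRA or with BMS641 plus BMS961, and Rarb-/- cells with BMS961. Counts over all tables of mutant lines also cover Rarb-/- cells with ATRA, BMS753 or BMS641 plus BMS961. They further cover Rarg-/- cells with ATRA, BMS753, BMS641 or BMS641 plus BMS961, all at day 10. No Rara-/- library with ethanol is among the samples, so the effect of the deletion and the response to BMS961 in Rara-/- cells cannot be told apart. Rara, Rarb and Rarg were listed in 0 of the 23 tables, so the deletion could not be checked on these values. The tables hold no expression levels, and the cells could not be checked against marker levels either.

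Retinoic acid receptors are nuclear receptors that bind DNA as heterodimers with retinoid X receptors. Without ligand they can hold co-repressors at their target genes, and with an agonist they recruit co-activators. In the developing nervous system retinoic acid switches on Hox genes of the hindbrain and spinal cord and favours neuronal differentiation, and it is kept low in the anterior forebrain. The comparison describes which genes differ from WT cells in ethanol at day 2 after a RARγ agonist, in cells with and without RARα. Time, medium and, in Rara-/- cells, the deletion are part of these differences.

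Each table lists only genes with an unadjusted p-value under 0.01 and gives the authors' log2 fold change, so a gene that is absent from a table has no value there. A gene was called when its log2 fold change was over 2 in size, which every listed gene passed. Genes called with the deletion but absent from the WT calls are named gained, genes called in WT cells only are named lost, and genes called in the same direction in both are named kept. With 1 library per condition there is no replicate, no test of the difference between the lines was possible, and a gained gene is not shown to differ from its level in WT cells. The standard error that follows from each deposited log2 value and p-value (the implied standard error, SE) had a median of 1.73 in the Rara-/- table and 1.51 in the WT table, in log2 units. Some unrelated genes with high values shared the same value and SE. Examples are Cartpt and Ttr at 7.64 (SE 2.49) in the Rara-/- table and Cubn and Dnah10 at 7.41 (SE 2.44) in the WT table. Whether such values rest on few reads was not tested, so the sizes and ranks of the highest values are uncertain.

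With BMS961, more genes were up-regulated in Rara-/- cells than in WT cells. The Rara-/- table listed 342 genes, of which 191 (10.9% of the 1753) were up-regulated and 151 (8.61%) were down-regulated. In WT cells 274 genes were listed, 143 of them up-regulated (8.16%) and 131 down-regulated (7.47%). WT cells in ethanol at day 10 had 167 up-regulated (9.53%) and 134 down-regulated genes (7.64%), so the count with BMS961 in WT cells lay below that of the vehicle and the count in Rara-/- cells lay above it for both directions.

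Of the members, 98 genes were gained up (5.59% of the 1753), 61 gained down (3.48%), 50 lost up (2.85%), 41 lost down (2.34%), 93 kept up (5.31%) and 90 kept down (5.13%). No gene present in both tables had opposite signs (0 of 183). The classes differed in how many of their genes the vehicle control also listed. Among up-regulated genes, the vehicle at day 10 listed 8 of the 98 gained (8.16%), 35 of the 50 lost (70.0%) and 63 of the 93 kept (67.7%), against 9.53% of all 1753 genes. Among down-regulated genes, it listed 7 of the 61 gained (11.5%), 15 of the 41 lost (36.6%) and 49 of the 90 kept (54.4%), against 7.64% of all genes. The shares of the gained genes were near those of all genes. Part of the contrast follows from the classes, since only lost and kept genes are listed in WT cells with BMS961, which share line, medium and reference with the vehicle. The smallest up-regulated value was 3.39 in the Rara-/- table and 3.02 in the WT table, and 11 genes lost up and 8 lost down had WT values nearer to 0 than any value of that direction in the Rara-/- table.

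**Figure D1:**
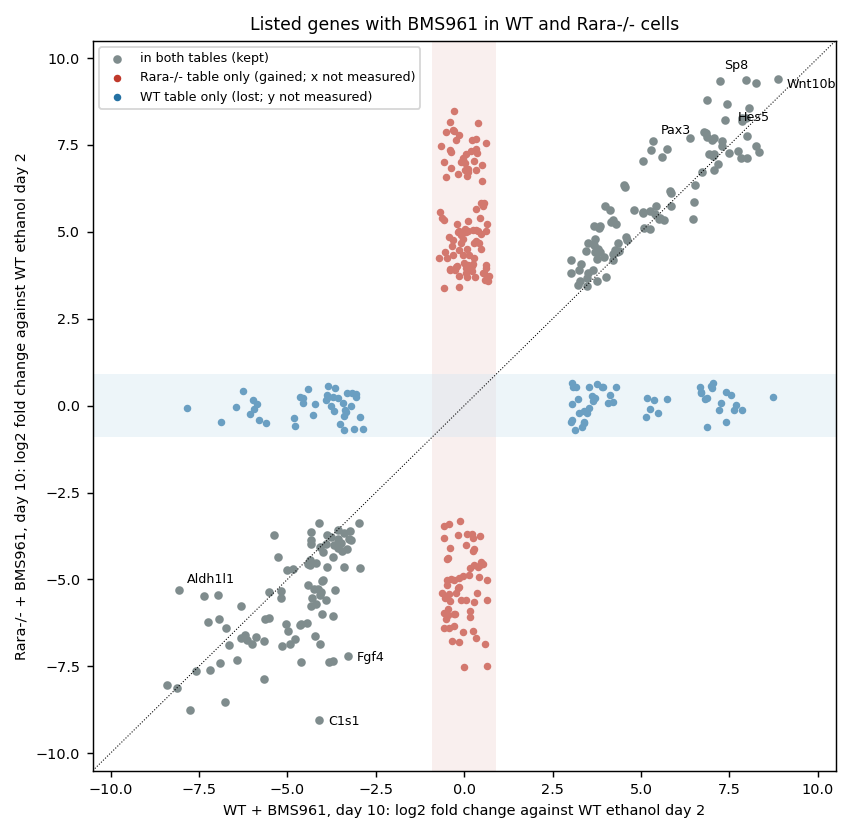
Log2 fold change against WT ethanol at day 2 with BMS961 at day 10, in WT cells (x axis) and in Rara-/- cells (y axis), 1 point per gene. The 183 kept genes (grey) lie along the dotted line of equal values, with 141 of them farther from 0 in Rara-/- cells; points in the shaded bands are genes listed in 1 table only, and their spread across a band is arbitrary.

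Some retinoid and Hox genes were among the gained genes. Of the 34 genes of the retinoid pathway list, 14 occurred in any table, 4 were up-regulated in Rara-/- cells (28.6% of the 14, median 5.20) and 1 in WT cells (7.14%, 5.06), against 10.9% and 8.16% of all genes and medians of 5.36 and 5.17 over all up-regulated genes of the same tables. Meis1, a homeobox cofactor of Hox proteins, was listed at 6.61 (SE 1.81) in Rara-/- cells with BMS961, 4.60 in WT cells with BMS641 plus BMS961, 9.15 in WT cells with BMS753 and 8.53 in WT cells with ATRA. It was not listed in WT cells with BMS961 or ethanol, nor in Rarb-/- cells with BMS961. Its relative Meis2 was listed at 4.85 (SE 1.49) in Rara-/- cells, 3.45 in WT cells with the agonist pair and 5.28 in WT cells with BMS753. Crabp1, which binds retinoic acid in the cytoplasm, was at 4.68 (SE 1.47) in Rara-/- cells, 4.88 in WT cells with BMS753 and 5.21 in WT cells with ATRA. Nr2f2, an orphan nuclear receptor induced by retinoids, was the retinoid gene called in both lines, at 5.55 (SE 1.65) in Rara-/- and 5.06 (SE 1.52) in WT cells, with 4.26 in the vehicle.

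Among the Hox genes, 23 of 39 occurred in any table, and 2 were up-regulated (8.70%) and 2 down-regulated (8.70%) in Rara-/- cells, against 0 and 1 in WT cells. Those shares were near the 10.9% and 8.61% of all genes in the same table. Hoxa2 and Hoxa3 pattern the hindbrain and its neural crest. Hoxa3 was listed at 6.59 (SE 2.01) in Rara-/- cells with BMS961, 7.36 with the agonist pair and 7.57 with ATRA, and in WT cells at 6.82 with BMS753 and 7.02 with ATRA. Hoxa2 was listed at 6.47 (SE 2.01), 7.40 and 6.94 in the same Rara-/- libraries, and at 7.62 and 7.26 in the same WT libraries. Both were absent from the tables of WT cells with ethanol, BMS961 or the agonist pair and of Rarb-/- cells with BMS961. The highest gained value of all, 8.47 (SE 2.44), belonged to Hoxaas2, a long non-coding RNA transcribed from the opposite strand of the Hoxa2 and Hoxa3 region, which was also at 8.78 and 7.89 in Rara-/- cells with the agonist pair and ATRA and at 8.70 and 8.30 in WT cells with BMS753 and ATRA.

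The 2 Hox genes that were down-regulated belong to the posterior end of their clusters. Hoxb13 was gained down at -7.51 (SE 2.18) and was listed at -7.83 in Rarb-/- cells with BMS961. Hoxc13 was kept down at -6.71 (SE 2.16) in Rara-/- and -4.77 (SE 1.80) in WT cells, with -7.38 in the vehicle.

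In the mm9 annotation Hoxa2 lies on the minus strand at chr6:52112350-52115412 and Hoxaas2 on the plus strand at chr6:52115673-52119563, so that their starts face each other across 260 bases. All 3891 bases of Hoxaas2 lie inside the longer of the 2 annotated Hoxa3 genes, taken from start to end with introns. Overlap of exons was not examined, and whether reads were counted by strand is not given. Whether the reads of both genes were kept apart is therefore unknown. The sequences before the annotated starts of Hoxa2, Meis1 and Crabp1 are shown because these genes of retinoid signalling and of head-to-tail patterning were gained up in Rara-/- cells. Each is the 250 bases before the start of the gene in mm9, 5′ to 3′ on the strand of the gene, and capitals mark the core hexamers of retinoic acid response elements (the consensus AGGTCA and its variants, spelled AGTTCA or with a first G as GGGTCA or else as GGTTCA, on either strand):
Hoxa2, chr6:52115413-52115662, minus strand: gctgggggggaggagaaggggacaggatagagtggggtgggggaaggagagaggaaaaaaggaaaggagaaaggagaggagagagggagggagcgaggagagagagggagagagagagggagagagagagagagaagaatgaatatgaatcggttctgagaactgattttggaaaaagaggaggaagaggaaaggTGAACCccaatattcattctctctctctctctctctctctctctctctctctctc
Meis1, chr11:18918962-18919211, minus strand: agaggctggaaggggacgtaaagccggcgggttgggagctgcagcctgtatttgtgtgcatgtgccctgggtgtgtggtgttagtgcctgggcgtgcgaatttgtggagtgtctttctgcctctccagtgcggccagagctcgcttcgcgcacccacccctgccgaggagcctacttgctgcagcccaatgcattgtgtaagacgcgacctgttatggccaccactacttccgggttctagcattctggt
Crabp1, chr9:54612305-54612554, plus strand: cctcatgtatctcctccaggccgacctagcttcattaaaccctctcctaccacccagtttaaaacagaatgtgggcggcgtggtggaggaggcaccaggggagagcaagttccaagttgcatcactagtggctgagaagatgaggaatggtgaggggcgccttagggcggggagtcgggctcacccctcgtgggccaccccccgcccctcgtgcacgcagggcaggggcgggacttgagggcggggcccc

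The Hoxa2 window held 1 hexamer, the reverse complement of GGTTCA, which begins 55 bases before the start. The mm9 annotation used for this window differs from RefSeq in the start of Hoxa2, so this position holds for that annotation only. The windows of Meis1 and Crabp1 held 0. Over RefSeq promoter windows of the same length (GRCm38.p6), 22 of the 91 windows of genes gained up held a hexamer (24.2%), as did 20 of 53 windows of genes gained down (37.7%) and 12689 of all 32841 windows (38.6%). Direct repeats of the hexamers spaced by 1, 2 or 5 bases were in 0 of the windows of gained genes and in 0.426% of all windows. The gained genes matched to the table numbered 74 up and 43 down. With the starts of the mm9 annotation the shares were 17.6% for genes gained up, 42.9% for genes gained down and 36.1% for all protein-coding genes. These shares describe letters in a short window, and receptor binding was not measured in these libraries.

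Some neural transcription factors were gained as well. Of 87 listed factors, 41 occurred in any table, and 8 were up-regulated in Rara-/- cells (19.5%, median 5.88), against 4 in WT cells (9.76%, median 4.92) and 3 in the vehicle (7.32%, median 4.82). Over all genes the shares were 10.9%, 8.16% and 9.53%. Irx5, an Iroquois homeobox factor, was gained at 6.66 (SE 2.01) and was at 7.04 in WT cells with the agonist pair. Insm1, a zinc finger factor of neuronal progenitors, was gained at 5.40 (SE 1.87), with 5.32 in the vehicle and 6.19 in WT cells with the agonist pair. Pou3f2 (Brn2), a factor of neuronal commitment, was gained at 5.39 (SE 2.04), with 5.67 in WT cells with the agonist pair and 6.76 with BMS753. Onecut2 was gained at 4.02 (SE 1.49), and it too was listed in WT cells with the agonist pair, at 4.38. These factors were thus absent from the table of WT cells with BMS961 while each was listed in WT cells with the agonist pair, and Insm1 was also listed in WT cells with ethanol.

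Pax3, Irx3 and Hes5 were kept up with larger values in Rara-/- cells. Pax3, which marks the dorsal neural tube and the neural crest, was at 7.61 (SE 2.04) in Rara-/- and 5.34 (SE 1.95) in WT cells and was not listed in the vehicle. Irx3, a neighbour and relative of Irx5, was at 6.36 (SE 1.71) and 4.51 (SE 1.51), with 4.59 in the vehicle. Hes5, a Notch target of neural progenitors, was at 8.67 (SE 2.43) and 7.42 (SE 2.44) and was not listed in the vehicle. The factor lost was Pax6, a regulator of forebrain and eye progenitors, at 3.70 (SE 1.40) in WT cells with BMS961, 4.34 in WT cells with the agonist pair and 5.03 with ATRA.

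The lost genes with the highest values included a Wnt ligand and a homeobox factor. The highest was that of Wnt7b (chr15:85365869-85412251, minus strand), expressed in the embryonic cortex, at 8.73 (SE 2.35) in WT cells with BMS961 and 8.37 in the vehicle. Otx1 (chr11:21894767-21902900, minus strand), a homeobox factor of forebrain and midbrain, followed at 7.85 (SE 2.39), with 7.97 in the vehicle and 8.90 in WT cells with the agonist pair. Dmrt3, a DM domain factor of the dorsal forebrain and of spinal interneurons, was at 7.68 (SE 2.41), with 8.81 in WT cells with the agonist pair. Fezf2, which specifies deep-layer cortical neurons, was lost at 4.06 (SE 1.54), with 4.98 in WT cells with the agonist pair. Wnt7b, Otx1, Dmrt3, Fezf2 and Pax6 were listed in none of the 3 Rara-/- tables at day 10. This was not particular to these genes. Cubn, Dnah10 and Mc1r, also lost up, were absent from all 3 as well, while Fgf18 and Egr1 were listed in both other Rara-/- tables. The share over all genes lost up was not counted. Fezf2 was chosen after its values were seen.

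Gsx2, a factor of the ventral telencephalon, was kept down at -5.29 (SE 1.75) in Rara-/- and -4.12 (SE 1.51) in WT cells, with -8.42 in the vehicle. In contrast Vax1, a homeobox factor of the ventral forebrain and optic stalk, was gained up at 7.87 (SE 2.47), with 7.32 in WT cells with the agonist pair and 7.80 in Rara-/- cells with it.

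**Figure D2:**
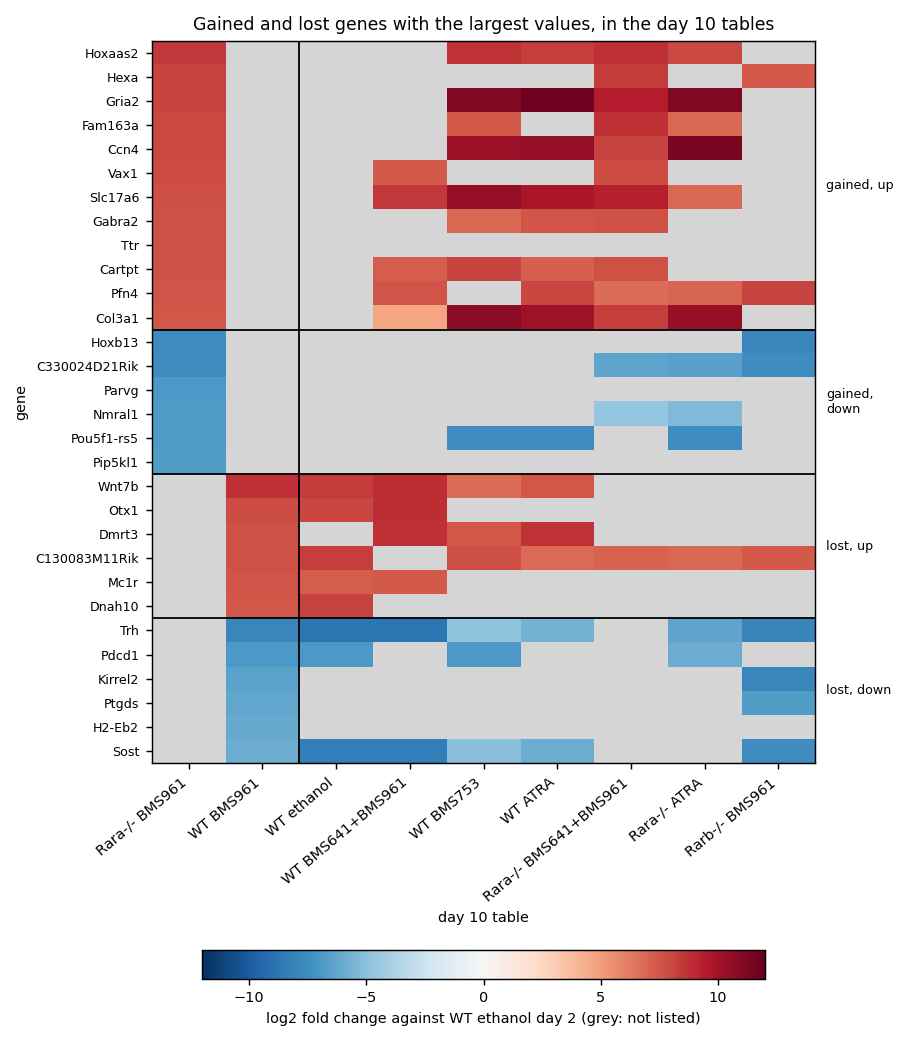
Log2 fold changes against WT ethanol at day 2 in 9 day 10 tables (columns) for the 12 gained genes with the highest and the 6 with the lowest values and the 6 lost genes at each end (rows); grey marks genes that a table does not list. Of the 6 genes lost up, all but Dmrt3 are coloured in the WT ethanol column, where none of the 12 genes gained up is.

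Some neuronal effector genes were up-regulated in Rara-/- cells. Of 67 genes for neuronal cytoskeleton and vesicle release, 24 occurred in any table. Of these, 4 were up-regulated in Rara-/- cells (16.7%, median 3.81), against 0 in WT cells with BMS961 and 0 in the vehicle. All 4 were gained up, which follows from the 0 in WT cells. Of all 191 genes up-regulated in Rara-/- cells, 98 were gained up. The share of all genes up-regulated was 10.9% in Rara-/- cells, 8.16% in WT cells with BMS961 and 9.53% in the vehicle, and the difference between the lines was not tested for these lists. Nsg2, a vesicle protein of neurons, was at 5.22 (SE 1.58) in Rara-/- cells, 8.07 in WT cells with BMS753 and 8.86 with ATRA. Dcx, the microtubule protein of migrating neurons, was at 3.91 (SE 1.48) in Rara-/- cells, 4.67 in WT cells with the agonist pair and 7.56 with BMS753. Gap43, a growth cone protein, was at 3.71 (SE 1.35) and Nefm, the medium neurofilament subunit, at 3.41 (SE 1.32). The values of Gap43 and Nefm were among the smallest of the genes gained up, whose lowest value was 3.39.

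Of 78 neurotransmission genes, 31 occurred in any table, and 6 were up-regulated in Rara-/- cells (19.4%, median 7.48), against 1 in WT cells (3.23%) and 0 in the vehicle, beside the same shares of all genes. Gria2 (chr3:80488858-80606713, minus strand), a subunit of AMPA glutamate receptors, was gained at 8.13 (SE 2.45), with 9.46 in Rara-/- cells with the agonist pair, 11.12 in WT cells with BMS753 and 11.67 with ATRA. Slc17a6 (chr7:58877200-58926495, plus strand), the vesicular glutamate transporter VGLUT2, was gained at 7.78 (SE 2.48), and was at 8.46 in WT cells with the agonist pair and 10.51 with BMS753. Genes of inhibitory transmission were gained as well. Gabra2 and Gabrg1, subunits of GABA-A receptors, were at 7.68 (SE 2.49) and 7.28 (SE 2.53), and Gabrg1 was listed in 1 other table, that of Rara-/- cells with the agonist pair, at 8.29. Grm7, a metabotropic glutamate receptor, was gained at 4.67 (SE 1.67). The neurotransmission gene kept in both lines was Cbln1, a secreted synapse organiser, at 5.17 (SE 1.57) in Rara-/- and 3.85 (SE 1.37) in WT cells. Cartpt, which encodes the CART neuropeptides, was gained at 7.64 (SE 2.49).

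The marker lists that the study drew from published datasets had most up-regulated members in Rara-/- cells, as did all 1753 genes, of which 10.9% were up-regulated in Rara-/- cells, 8.16% in WT cells with BMS961 and 9.53% in the vehicle. Of 330 neuron markers in any table, 46 were up-regulated in Rara-/- cells (13.9%, median 5.17), 24 in WT cells with BMS961 (7.27%, median 4.71) and 18 in the vehicle (5.45%, median 4.61). Of the 330 neuron markers, 31 were gained up, 9 lost up and 15 kept up. Of all 1753 genes, 98 were gained up (5.59%), 50 lost up (2.85%) and 93 kept up (5.31%). Of the 15 neuron markers kept up, 13 had the higher value in Rara-/- cells, as did 72 of all 93 genes kept up (77.4%). Down-regulated neuron markers numbered 18 in Rara-/- cells (5.45%), 23 in WT cells with BMS961 (6.97%) and 24 in the vehicle (7.27%). The shares of all genes were 8.61%, 7.47% and 7.64%. Dopaminergic markers were up-regulated in 21, 10 and 9 cases of 128 in Rara-/- cells (16.4%), WT cells with BMS961 and the vehicle, GABAergic markers in 12, 8 and 8 of 78 (15.4% in Rara-/- cells), and glutamatergic markers in 7, 5 and 5 of 68. The 10.3% of glutamatergic markers in Rara-/- cells lay below the 10.9% of all genes. The neuron subtype lists share genes with the neuron list, and their counts are not independent of it.

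**Figure D3:**
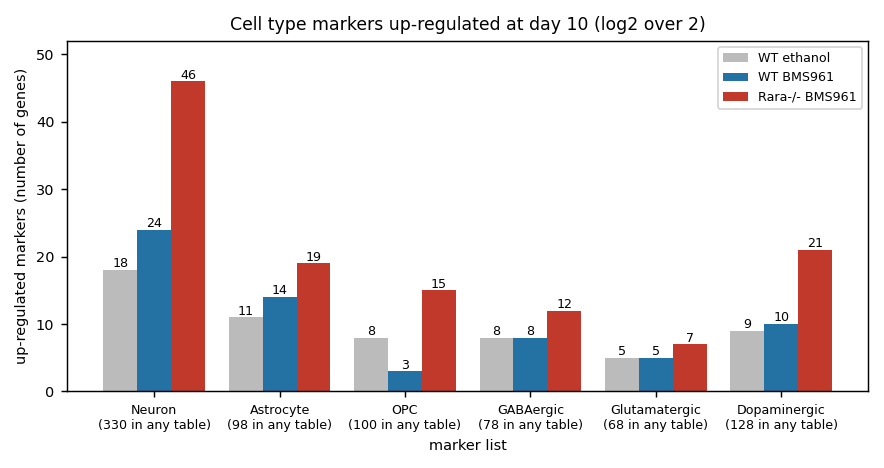
Number of up-regulated markers (log2 fold change over 2 against WT ethanol at day 2, y axis) of 6 cell type lists at day 10 in WT cells with ethanol, WT cells with BMS961 and Rara-/- cells with BMS961, 1 library each and so without error bars. The Rara-/- bar is the tallest in every list, as it would be for all 1753 genes (191 against 143 and 167), with 46 neuron markers against 24 and 18, and the oligodendrocyte precursor (OPC) list has 15 against 3 and 8.

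Some glial genes were up-regulated in both lines. Of 98 astrocyte markers of the study, 19 were up-regulated in Rara-/- cells (19.4%, median 5.16), 14 in WT cells (14.3%, median 4.00) and 11 in the vehicle (11.2%, median 4.48), against 10.9%, 8.16% and 9.53% of all genes. The counts of all genes, 191 in Rara-/- and 143 in WT cells, stood in a like ratio to each other. All 10 astrocyte markers kept up had the higher value in Rara-/- cells, as did 77.4% of all genes kept up, with a median difference of 1.05 against 0.35 over all 93 genes kept up. Nfia and Nfib, nuclear factors that act in the switch to gliogenesis, were gained at 5.58 (SE 1.63) and 3.95 (SE 1.41), and were at 7.30 and 6.01 in WT cells with BMS753. Fabp7, the fatty acid binding protein of radial glia, was kept up at 7.38 (SE 1.79) in Rara-/- and 5.73 (SE 1.58) in WT cells, with 4.27 in the vehicle. Tnc, a matrix protein of radial glia and astrocytes, was at 5.16 (SE 1.53) and 3.66 (SE 1.28), with 4.05 in the vehicle, and Sox9 was at 5.73 and 5.43, with 4.95 in the vehicle. Other astrocyte genes were lower than at day 2 in both lines. Of the 98 markers, 10 were down-regulated in Rara-/- cells (10.2%), 10 in WT cells with BMS961 (10.2%) and 9 in the vehicle (9.18%). The shares of all genes were 8.61%, 7.47% and 7.64%. Aldh1l1, a folate enzyme used as a mark of mature astrocytes, was at -5.30 (SE 1.66) in Rara-/- and -8.06 (SE 1.91) in WT cells, and Aldoc, the brain aldolase, was at -4.06 and -4.07.

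Of 100 OPC markers, 15 were up-regulated in Rara-/- cells (15%, median 5.02), 3 in WT cells (3%, median 6.39) and 8 in the vehicle (8%, median 6.77), against 10.9%, 8.16% and 9.53% of all genes. Over all genes, 98 of the 191 up-regulated in Rara-/- cells were gained, and of the 15 OPC markers 13 were. Several of these 13 are not particular to that lineage. Col3a1 at 7.48 (SE 1.77), Col1a2 at 5.04 (SE 1.51) and Col1a1 at 4.79 (SE 1.51) encode fibrillar collagens of connective tissue. Pdgfra (chr5:75548316-75594229, plus strand), the platelet-derived growth factor receptor of oligodendrocyte precursors and of mesenchyme, was gained at 7.39 (SE 2.52), and was also at 7.37 in Rarb-/- cells with BMS961 and 9.85 in WT cells with BMS753. It was the only gene called among the 19 of the oligodendrocyte lineage list, of which 4 occurred in any table.

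Mesenchyme and neural crest genes had most up-regulated members in Rara-/- cells, as did all genes (10.9%, against 8.16% in WT cells and 9.53% in the vehicle). Of 65 mesenchyme and extracellular matrix genes, 44 occurred in any table, and 7 were up-regulated in Rara-/- cells (15.9%, median 5.04), 2 in WT cells (4.55%, median 5.11) and 4 in the vehicle (9.09%, median 5.55). Of 17 genes of the neural crest and Schwann lineage, 11 occurred in any table, with 4 up-regulated in Rara-/- cells and 2 each in WT cells and the vehicle. Ngfr, the p75 neurotrophin receptor, was gained at 7.36 (SE 2.52) and Ednrb, the endothelin receptor of crest cells, at 5.73 (SE 2.02), while Tfap2b, a factor of the crest, was kept at 7.37 and 5.28. Genes of endoderm and epithelium were up-regulated in 2, 2 and 4 of 15 cases, muscle genes in 1, 1 and 1 of 8, and genes of blood, endothelium and immune cells in 0, 0 and 0 of 3. In bulk libraries more cells of a type and more RNA per cell cannot be told apart, and the share of other cell types in these counts was not tested.

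Secreted signals were up-regulated in both lines and in the vehicle. Of 80 such genes, 39 occurred in any table, and 14 were up-regulated in Rara-/- cells (35.9%, median 6.03) against 11 in WT cells (28.2%, median 6.52) and 11 in the vehicle (28.2%, median 6.94), beside 10.9%, 8.16% and 9.53% of all genes. The Wnt ligands split between the classes. Wnt10b had the highest value of either table, 9.41 (SE 2.42) in Rara-/- and 8.87 (SE 2.34) in WT cells, with 9.44 in the vehicle. Wnt1, the ligand of the midbrain and dorsal midline, was kept at 6.30 (SE 1.79) and 4.56 (SE 1.66) and was not listed in the vehicle, and Wnt6 was kept at 5.76 and 3.97, with 4.43 in the vehicle. Wnt4 at 3.81 and Wnt9a at 3.74 were gained, and Wnt7b was lost. Ccn4, a matricellular protein induced by Wnt signals, was gained at 7.89 (SE 2.47) and was at 10.30 in WT cells with BMS753. Bmp4 was kept at nearly equal values, 6.34 and 6.52, and Bmp2 at 7.65 and 7.01.

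**Figure D4:**
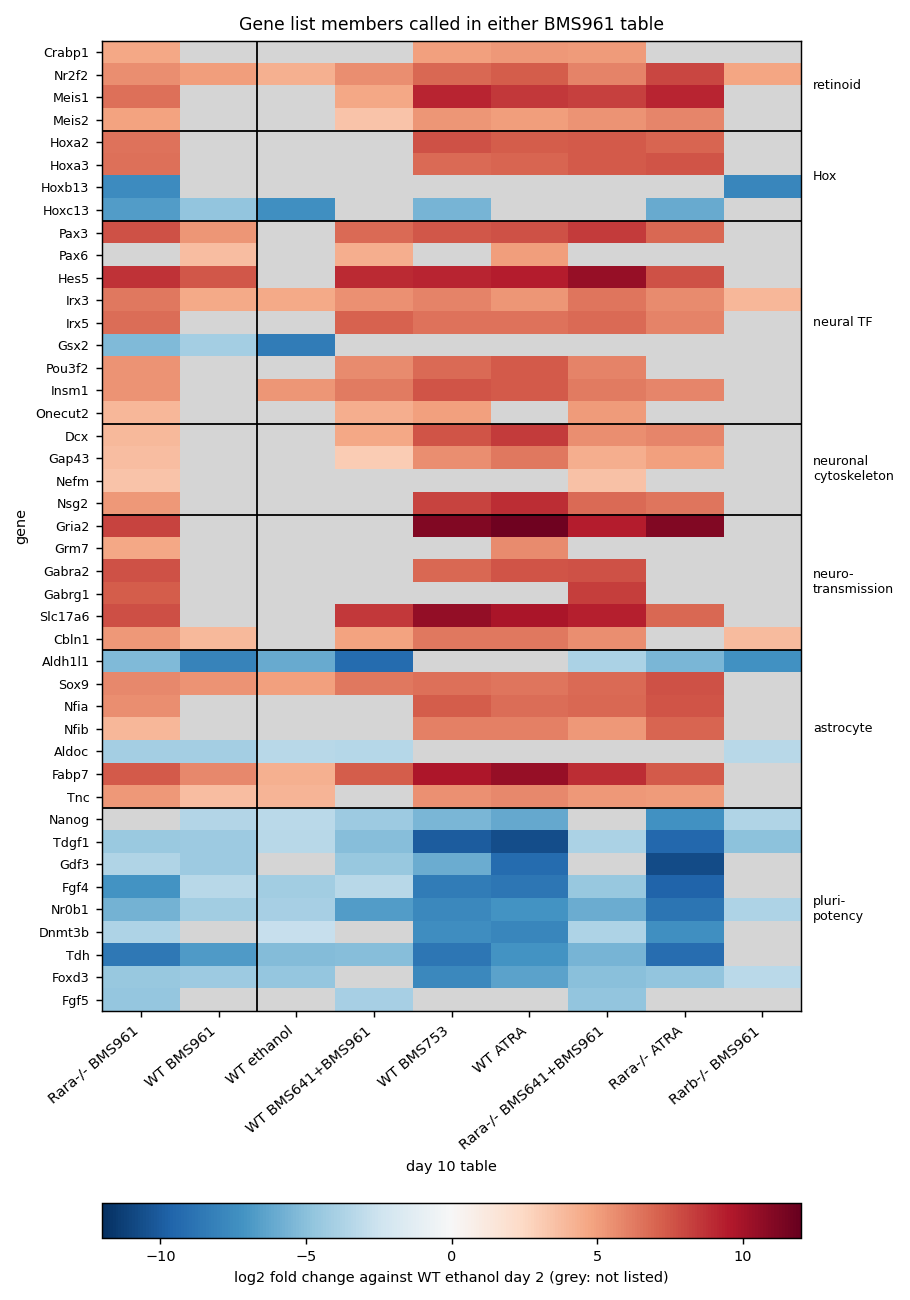
Log2 fold changes against WT ethanol at day 2 in 9 day 10 tables (columns) for members of 7 gene lists called in Rara-/- or WT cells with BMS961 (rows, grouped by list); grey marks genes a table does not list. The first column is coloured for the neuronal cytoskeleton genes and for 6 neurotransmission genes, of which the second column shows Cbln1 only.

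The remaining genes with the highest gained values had varied functions. Hexa, the alpha subunit of lysosomal beta-hexosaminidase, was at 8.15 (SE 2.45) in Rara-/- cells with BMS961, 8.36 in Rara-/- cells with the agonist pair and 7.34 in Rarb-/- cells with BMS961, and 0 of the 12 WT tables listed it. Ttr, the carrier of thyroxine and of the retinol binding protein, was at 7.64 (SE 2.49) in Rara-/- cells with BMS961 and was listed in no other table of the series. Fam163a was at 7.93 (SE 2.47) and was at 8.80 in Rara-/- cells with the agonist pair. Pfn4, of the profilin family of actin-binding proteins, was at 7.57 (SE 2.50) and was at 7.59 in WT cells with the agonist pair and 8.11 in Rarb-/- cells with BMS961. Cyp1b1, a cytochrome P450 that can oxidise retinol, was gained at 4.05 (SE 1.52), with 3.90 and 5.07 in Rara-/- cells with the agonist pair and ATRA, and 0 of the 12 WT tables listed it. It was chosen after its values were seen.

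At the other end, the genes gained down included uncertain symbols. C330024D21Rik, an uncharacterised transcript, was at -7.50 (SE 2.51), and the same value to within 0.0001 stood in 8 other tables. Pou5f1-rs5, a retrocopy of the pluripotency gene Pou5f1 whose reads may be shared with the parent gene, was at -6.77 (SE 2.16). Nmral1, an NADPH-sensing protein, was at -6.81 (SE 1.78), with -4.67 and -5.28 in Rara-/- cells with the agonist pair and ATRA, and no table of another line listed it. Parvg, an actin-binding parvin, was at -6.85 (SE 2.60) and Pip5kl1, a phosphoinositide kinase-like protein, at -6.70 (SE 2.17), and neither was listed in another table. Over all 61 genes gained down the median was -5.20, and 10 had symbols of the kinds that are named here only with a remark.

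The genes lost down with the most negative values had varied functions. Trh, the thyrotropin-releasing hormone precursor, was at -7.85 (SE 1.96) in WT cells with BMS961, -8.75 in the vehicle, -7.91 in Rarb-/- cells with BMS961 and -6.31 in Rara-/- cells with ATRA. Sost, a secreted antagonist of Wnt signalling, was at -5.97 (SE 1.77), with -8.28 in the vehicle and -7.44 in Rarb-/- cells with BMS961. Pdcd1, an immune checkpoint receptor, was at -6.89 (SE 2.52), a value that 2 other tables repeated to within 0.0001. Kirrel2 was at -6.44 (SE 1.93), Ptgds, a prostaglandin D2 synthase, at -6.24 (SE 2.24), and H2-Eb2, a class II histocompatibility gene with close paralogs, at -6.06 (SE 2.28). Of the further genes lost up at the top of the list, Mc1r, a melanocortin receptor, was at 7.54 (SE 2.42) and Dnah10, an axonemal dynein, at 7.41 (SE 2.44), with 7.31 and 8.10 in the vehicle. C130083M11Rik, an uncharacterised transcript, was at 7.63 (SE 2.41) and was listed in both other Rara-/- tables, at 7.06 and 6.92.

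Genes of pluripotency were down-regulated in both lines. Of 40 such genes, 25 occurred in any table, and 8 were down-regulated in Rara-/- cells (32.0%, median -4.61), 7 in WT cells (28.0%, median -4.34) and 9 in the vehicle (36.0%, median -4.00), against 8.61%, 7.47% and 7.64% of all genes and medians of -5.38, -4.31 and -5.14 over all down-regulated genes. Fgf4, a growth factor of the inner cell mass, was at -7.21 (SE 1.84) in Rara-/- and -3.28 (SE 1.27) in WT cells, with -4.17 in the vehicle. Tdh, threonine dehydrogenase of embryonic stem cells, was at -8.54 (SE 1.88) and -6.78 (SE 1.61), with -5.22 in the vehicle, and Nr0b1 was at -5.71 and -4.20, with -4.00 in the vehicle. Tdgf1 and Foxd3 differed by -0.06 and -0.15 between the lines, and Gdf3 was nearer to 0 in Rara-/- cells, at -3.64 against -4.34. Nanog was lost at -3.51 (SE 1.26), with -3.24 in the vehicle and -7.30 in Rara-/- cells with ATRA. Dnmt3b, the de novo DNA methyltransferase, was gained down at -3.75 (SE 1.34) and Fgf5, a gene of the epiblast, at -4.68 (SE 1.65).

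Kept genes lay farther from 0 in Rara-/- cells in both directions. Of 93 genes kept up, 72 had the higher value in Rara-/- cells (77.4%), and the median difference, Rara-/- minus WT, was 0.35 (quartiles 0.08 and 1.04). Of 90 genes kept down, 69 had the more negative value in Rara-/- cells (76.7%), with a median difference of -0.58 (quartiles -1.43 and -0.06). Over all 183 kept genes the median difference was 0.0031. The difference was under 1 in size for 117 of the 183 genes, and it exceeded the combined implied SE of both values for 7 genes, all of them kept down. Most of these differences were thus smaller than the combined SE, which had a median of 2.29. The combined SE treats both values as independent. Both share the WT ethanol library of day 2, so it may overstate the error of the difference, and no test was possible. The smallest listed values also lay farther from 0 in Rara-/- cells (3.39 and -3.33) than in WT cells (3.02 and -2.87). When only values at least as far from 0 as 3.39 and -3.33 were used in both tables, the median difference was 0.33 over 87 genes kept up and -0.52 over 83 genes kept down. A common limit does not remove the effect of the listing, since each gene is listed by its own p-value. The median implied SE of kept genes was larger in Rara-/- than in WT cells, 1.76 against 1.61 for genes kept up and 1.70 against 1.45 for genes kept down.

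The largest difference belonged to C1s1, the complement protease C1s, at -9.04 (SE 2.01) in Rara-/- and -4.09 (SE 1.35) in WT cells, a difference of -4.95 with a combined SE of 2.42. The mm9 annotation used here for coordinates has a single C1s gene at chr6:124480363-124586998, matched by an older symbol. Whether the authors' counting separated reads of close copies of this gene was not tested. Fgf4 followed with -3.92 (combined SE 2.23), and H2-Q10, a class I histocompatibility gene with close paralogs, with -3.65 (combined SE 2.36). Ptgir, the prostacyclin receptor, differed by -3.54 (combined SE 2.44), Fam163b by -2.80 (combined SE 2.47) and Rab17, a small GTPase of epithelia, by -2.76 (combined SE 3.08). All 6 were lower in Rara-/- cells.

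In the other direction Aldh1l1 differed by 2.76 (combined SE 2.53), less reduced in Rara-/- cells, and the difference exceeded its combined SE. Pax3 differed by 2.27 (combined SE 2.83) and Tfap2b by 2.09. Zfp503 at 7.03 and 5.06 and Adcy8, an adenylyl cyclase of neurons, at 8.79 and 6.86 were also among them, and neither was listed in the vehicle. At the extremes, Gprc5a, an orphan receptor known to be inducible by retinoic acid, was at 9.27 and 8.24, but the vehicle listed it at 9.35. Sp8, a zinc finger factor of the forebrain and limb, was at 9.37 and 7.97, with 6.94 in the vehicle. Among kept genes with low values in both lines, Tspan10 was at -8.77 and -7.76, Dusp26 at -8.03 and -8.41, and Ptf1a at -8.12 in both, a value that 5 other tables repeat to within 0.0001.

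**Figure D5:**
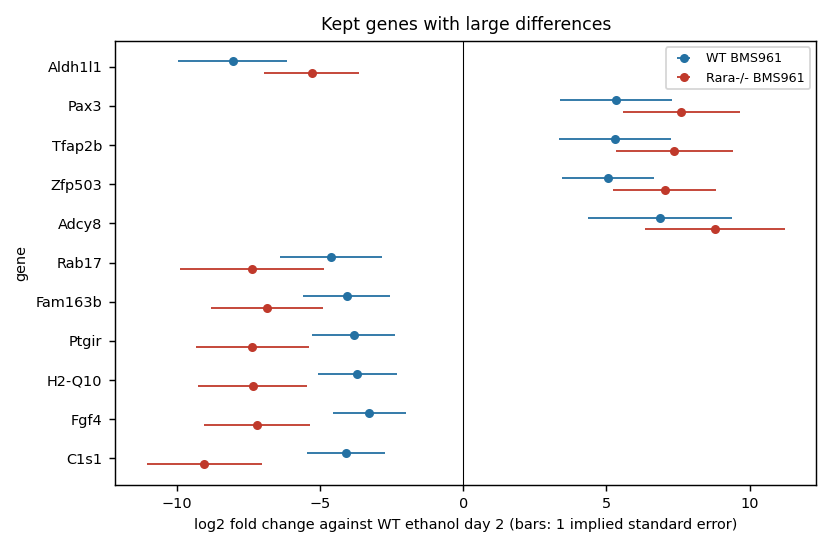
Log2 fold change against WT ethanol at day 2 (x axis) in WT (blue) and Rara-/- cells (red) with BMS961 at day 10 for kept genes with large differences (y axis); bars are 1 implied standard error, and there is 1 library per condition. The bars of the pair are apart for C1s1, Fgf4, H2-Q10 and Ptgir and overlap for Pax3, Tfap2b, Zfp503 and Adcy8.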

How the data were processed

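Poly-T captured RNA of 24 samples was sequenced in pairs. The authors aligned reads to the mouse genome mm9 (Bowtie2 2.1.0), counted them per gene (featureCounts) and obtained fold changes from DESeq2, and strand use is not given in the sources used here. The deposited tables hold the authors' log2 fold change and unadjusted p-value of 1 library against the WT ethanol library of day 2, for genes with a p-value under 0.01. The WT ATRA day 2 table also holds the authors' standard error, a score in log2 units. These fold changes were used because the comparison is defined on them, and the p-values served only as limits and for the implied SE. No read counts were used, so depth and its precision are unknown.

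Genes were matched by symbol, and called at a log2 fold change over 2 in size. The implied SE is the size of the log2 value divided by the two-sided normal quantile of its p-value, and for the 144 genes with a deposited standard error the relative gap to it was 4.27e-08 or less. When this comparison was simulated on 1753 genes, 200 of 200 changed genes were assigned to the right class. All simulated changed genes lay over the limit of 2 and all others within it. The simulation therefore checks the sorting step only, and not whether real genes are classed correctly. Named genes were, by rule, the gained and lost genes with the largest values, the kept genes with the largest differences and highest and lowest means, and members of the lists by size. Some genes that the rule selects are not reported here. The members and lists were chosen with earlier results of these data known. Of the 433 symbols, 412 matched 1 gene of GENCODE vM1 (mm9), 28 of them by an older symbol. Sequences came from the mm9 genome and the RefSeq promoter table. Alternatives were other limits of fold and p-value, a common smallest value, removal of genes called in the vehicle or of uncertain symbols, case-free symbols and markers of 1 list only. The tools were Python 3.11.15 with numpy 2.4.6, scipy 1.17.1, pandas 2.3.3 and, for plots, matplotlib 3.10.9.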

Additional observations from a re-analysis of the deposited data

How the results depend on the processing

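With 1 library per condition no alternative gives a test, and a count was taken as stable when it stayed within 1.5 times the value in the report. Of 133 alternative values for 17 results, 82 did so, 51 did not, and 0 changed sign. No paired analysis was possible because each condition has a single library. The common smallest value (3.39 up, -3.33 down), the removal of uncertain symbols, symbols without case, a fold limit of 3 and markers of 1 list only moved no count by more than this.

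A limit of 4 on the log2 value left 28 genes lost up, 23 lost down and 58 kept down, and in WT cells 15 neuron and 7 astrocyte markers. A limit of 5 left 63 genes gained up, 24 lost up, 13 lost down, 53 kept up and 30 kept down, with 26 neuron, 10 astrocyte and 9 OPC markers up-regulated in Rara-/- cells and 12 neuron and 6 astrocyte markers in WT cells. A p-value limit of 0.005 in both tables gave 26 genes lost up, 24 lost down, 57 kept up and 47 kept down, 11 astrocyte markers in Rara-/- cells, and 15 neuron and 9 astrocyte markers in WT cells. A limit of 0.001 gave 26 gained up, 25 gained down, 7 lost up, 10 lost down, 16 kept up and 14 kept down. At that limit 9 neuron, 4 astrocyte and 4 OPC markers remained listed in Rara-/- cells, and 4 neuron, 1 astrocyte and 1 OPC marker in WT cells. Fewer listed genes are the construction of these limits.

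Without genes also called in WT ethanol at day 10, 15 genes were lost up, 26 lost down, 30 kept up and 41 kept down, with 12 astrocyte markers in Rara-/- cells and 11 neuron, 6 astrocyte and 0 OPC markers in WT cells. The mean difference of genes kept up was 0.53 against a median of 0.35. Chosen after the values were seen, a limit of 0.005 in the listing table alone, with no listing in the other, gave 55 gained up, 31 gained down, 19 lost up and 12 lost down, and a limit of 0.001 gave 10, 7, 1 and 4. The starts of the mm9 annotation, also tried after the values were seen, kept the promoter shares within 1.5 times.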

Other observations

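The genes listed in all 3 Rara-/- tables and in 0 of the 12 WT tables were picked out after their values were seen, and some of them are given here. C330024D21Rik, an uncharacterised transcript, was listed as down-regulated in all 11 tables of mutant lines (Rara-/-, Rarb-/- and Rarg-/- cells), with a median of -7.50. Cdk3, of the cyclin-dependent kinases, is annotated in mm9 as a polymorphic pseudogene (Cdk3-ps). It was down-regulated in 10 mutant tables, between -6.35 and -4.37, with its lowest value in Rara-/- cells with BMS961. Cyp1b1 was up-regulated in 4 mutant tables, between 3.90 and 5.68, with its highest value in Rarg-/- cells with ATRA. Nmral1 was down-regulated in the 3 Rara-/- tables, between -6.81 and -4.67. In these tables, differences of the lines before treatment cannot be told apart from a response to the agonists.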
